A study of Mus musculus with 5 samples.

Results

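The genes described here mark cholinergic motor neurons. They were chosen by name as 10 genes, each read from every microarray probe set that carries its symbol and no other. All 10 had exactly 1 such probe set, out of 19937 genes with 21640 single-symbol probe sets in the table. The RNA came from anti-FLAG precipitates of differentiated NSC-34 cells, a mouse line made by fusing neuroblastoma cells with motor neurons of the spinal cord and described by the submitters as motor neuron-like. The precipitates comprised 3 from cells with a 3XFLAG-flSMN construct, a FLAG-tagged survival of motor neuron protein (FLAG-SMN IP), and 2 from NSC-34 cells with no FLAG construct (control IP). Cells of both groups were differentiated in 1% serum (for 3 days in the growth protocol, 48 hours in the treatment protocol), kept with doxycycline (3 µg/ml, 3 days) and crosslinked with ultraviolet light at 400 mJ/cm2. Neither the clonality of the construct cells nor the promoter that drives the construct is given, and no label says whether the replicates come from different cultures; the spread behind each p-value may therefore be technical. RNA of the lysates was not analysed here, so a level is that in a precipitate, and a difference was not corrected for the RNA content of the cells.

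Cholinergic neurons make acetylcholine from choline and acetyl-CoA, load it into synaptic vesicles, and recover choline from the cleft after the transmitter is hydrolysed. Chat encodes the synthesising enzyme, Slc18a3 the vesicular acetylcholine transporter, Slc5a7 the high-affinity choline transporter, and Ache the hydrolysing enzyme. Slc10a4 encodes a vesicular protein of the bile acid transporter family found in cholinergic and monoaminergic neurons. Spinal motor neurons are specified by LIM-homeodomain factors, Isl1, Isl2, Lhx3 and Lhx4, together with the homeodomain factor Mnx1 (HB9).

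The genome places Slc18a3 inside Chat, an arrangement known as the cholinergic gene locus, and the mouse RefSeq gene table (GRCm38.p6) also has it there. RNA of unspliced Chat and RNA of Slc18a3 can therefore share sequence, and the Slc18a3 probe set does not tell them apart. The 250 bases before the annotated start are shown for this nested pair and for Slc10a4, the gene with the largest difference between precipitates. They are from RefSeq, 5′ to 3′ on the gene's strand, with capitals marking the E-box letters CANNTG, a motif of basic helix-loop-helix factors. All 10 genes matched the promoter table, with 11 start sites.
Chat, chr14:32465910-32466159, minus strand: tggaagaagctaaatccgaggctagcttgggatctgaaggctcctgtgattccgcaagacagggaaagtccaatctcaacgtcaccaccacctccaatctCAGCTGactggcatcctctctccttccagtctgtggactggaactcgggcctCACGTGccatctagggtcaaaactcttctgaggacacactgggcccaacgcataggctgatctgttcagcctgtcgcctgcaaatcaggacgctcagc
Slc18a3, chr14:32464851-32465100, minus strand: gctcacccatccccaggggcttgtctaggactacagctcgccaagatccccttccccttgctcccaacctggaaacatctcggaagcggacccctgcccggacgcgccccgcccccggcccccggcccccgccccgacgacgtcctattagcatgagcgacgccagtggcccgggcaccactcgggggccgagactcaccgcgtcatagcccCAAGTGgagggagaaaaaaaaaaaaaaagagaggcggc
Slc10a4, chr5:73006654-73006903, plus strand: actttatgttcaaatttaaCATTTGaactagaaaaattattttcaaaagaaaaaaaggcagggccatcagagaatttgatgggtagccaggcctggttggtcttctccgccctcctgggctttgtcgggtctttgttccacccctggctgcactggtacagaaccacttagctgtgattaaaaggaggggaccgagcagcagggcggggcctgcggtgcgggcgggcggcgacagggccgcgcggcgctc
CANNTG, which reads alike on both strands, was present in 8 of the 11 identity gene windows (72.7%) and in 66.2% of all 32851 windows of the same length. TAATTA, the core letters bound by many homeodomain factors and also alike on both strands, was in 0 of the 11 and in 4.84% of all windows. The motifs do not overlap each other in the windows shown. These matches describe the letters only.

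Values are deposited log2 intensities after RMA, the standard Affymetrix summary, and each probe set has its own affinity, so values of different genes do not rank their RNAs. Within the FLAG-SMN IP group, replicate 1 was the least similar array across the table, with r = 0.964 and 0.968 to the other two, which reached 0.989 with each other. Smn1 read 9.89, 9.50 and 9.46 in FLAG-SMN IP and 8.10 and 7.64 in control IP, higher on every FLAG-SMN array (adjusted p = 0.0877 in limma). Background was set by 1208 probe sets of olfactory and vomeronasal receptor genes, which are known from sensory epithelia and were presumed silent in this line. A gene was called above background on an array when it exceeded their 95th percentile there, 4.54, 4.49 and 4.40 in FLAG-SMN IP and 4.68 and 4.34 in control IP.

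By that measure 7 of the 10 identity genes were above background on all 5 arrays, against 58.2% of all tested probe sets. They were Slc18a3, Slc10a4, Ache, Isl1, Isl2, Lhx3 and Lhx4. Slc5a7 and Mnx1 were above it on 0 arrays, and Chat on 1. Of the tests between precipitates, 0 of the 10 genes passed at an adjusted p under 0.05 in limma, against 0.0319% of all 28187 probe sets (0.0142% higher and 0.0177% lower). Before adjustment, p was under 0.05 for 0 higher genes and for 1 lower gene, Slc10a4, against 4.14% and 6.31% of all probe sets. That lower count was 2 when either replicate 3 of FLAG-SMN IP or replicate 1 of control IP was left out.

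**Figure D1:**
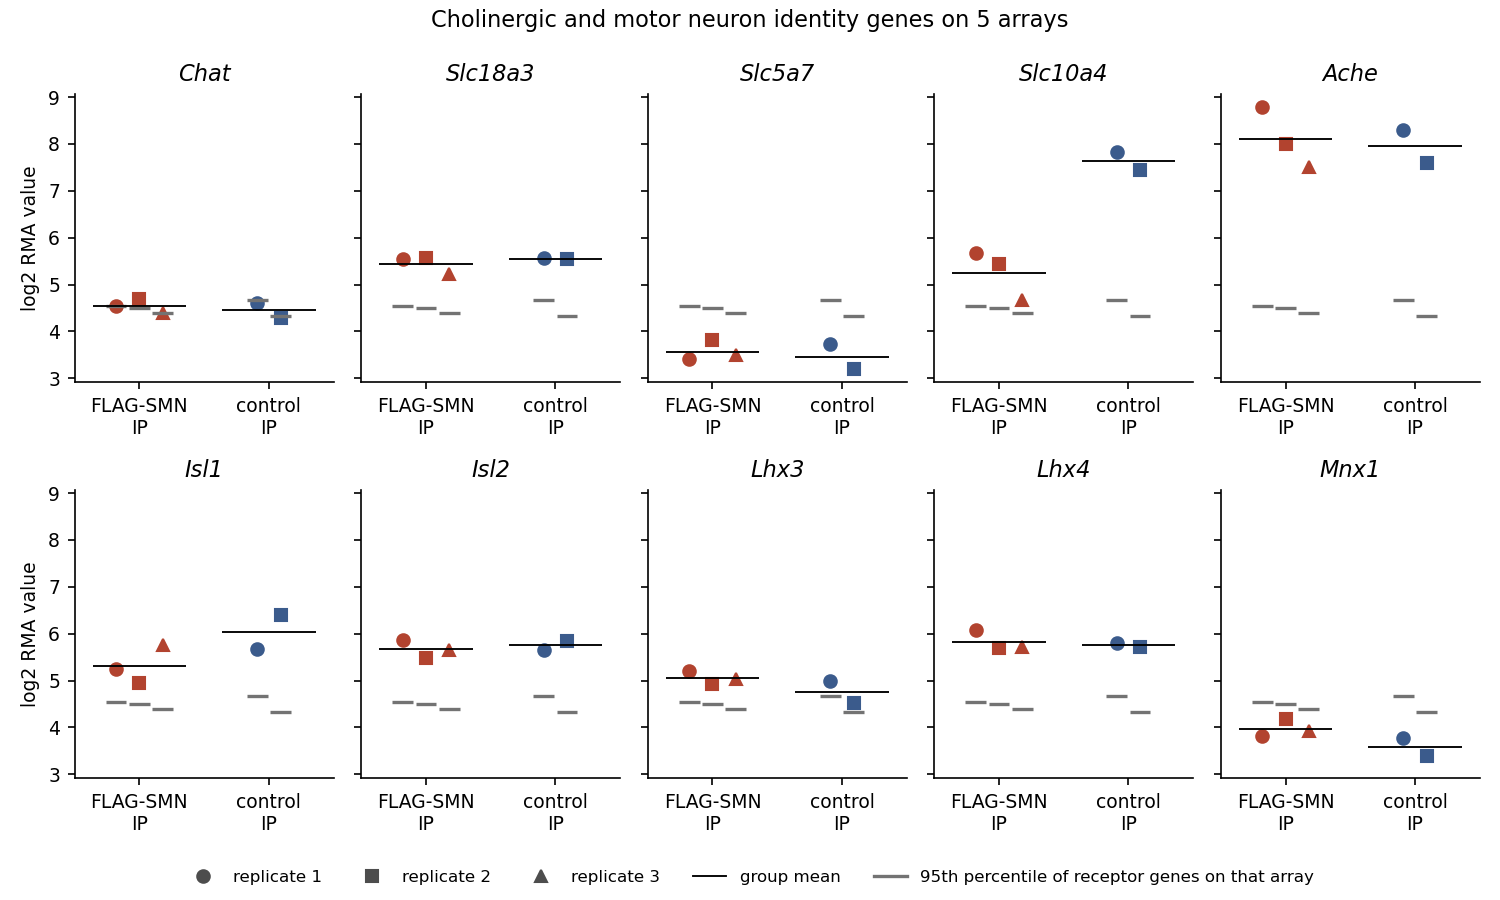
Each panel plots 1 gene, with the log2 RMA value on the vertical axis, FLAG-SMN IP arrays on the left in red and control IP arrays on the right in blue. Black lines are group means and short grey bars mark the 95th percentile of the receptor genes on the same array; Slc10a4 separates the groups by 1.78 and Mnx1, below the grey bars, by 0.026, Ache lies 3.10 to 4.25 above the grey bars, and Slc5a7 and Mnx1 lie below them on all 5 arrays.

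Among the genes of acetylcholine synthesis and transport, Chat (probe set 10418817) read 4.53, 4.69 and 4.40 in FLAG-SMN IP and 4.61 and 4.28 in control IP. These values lay between 0.071 below and 0.20 above the 95th percentile of the receptor genes, at the edge of background in both groups. The groups overlapped, with means of 4.54 ± 0.15 (SD, n = 3) in FLAG-SMN IP and 4.45 ± 0.23 (SD, n = 2) in control IP. The log2 difference was 0.093 (SE 0.20, 95% interval -0.38 to 0.57, limma adjusted p = 0.967), and so near background a true difference would be understated.

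Slc18a3 (probe set 10418835) read 5.54, 5.56 and 5.21 in FLAG-SMN IP and 5.56 and 5.54 in control IP. All 5 values were 0.81 to 1.21 above the 95th percentile, and exceeded up to 99.8% of the receptor genes. The control arrays differed by only 0.019, and FLAG-SMN IP replicate 3 was the lowest array. FLAG-SMN IP minus control IP gave a log2 difference of -0.11 (SE 0.19, 95% interval -0.57 to 0.34, limma adjusted p = 0.951). The nested pair thus had intervals that both contain 0.

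Slc5a7 (probe set 10451838) read 3.40, 3.81 and 3.49 in FLAG-SMN IP and 3.73 and 3.20 in control IP. It exceeded 68.5% to 81.5% of the receptor genes in FLAG-SMN IP and 62.3% to 76.3% in control IP, within the background range on every array. Its difference of 0.11 (SE 0.24, limma adjusted p = 0.969) therefore carries no fold.

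Slc10a4 (probe set 10522388) had the largest difference of the 10 genes. It read 5.67, 5.43 and 4.67 in FLAG-SMN IP and 7.83 and 7.45 in control IP. The groups did not overlap, with a gap of 1.78 log2 units between the highest FLAG-SMN and the lowest control value. Separation in this direction occurred at 13.2% of all tested probe sets, but a difference of at least 2-fold lower at only 1.73%. The means were 5.25 ± 0.52 (SD, n = 3) in FLAG-SMN IP and 7.64 ± 0.27 (SD, n = 2) in control IP.

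The log2 difference of Slc10a4 was -2.39 (SE 0.32, 95% interval -3.15 to -1.62), which is 5.23-fold lower in FLAG-SMN IP (95% interval 3.07 to 8.89). It did not pass the adjusted threshold (limma adjusted p = 0.0891). With replicate 1 of FLAG-SMN IP left out, the estimate of -2.59 passed (adjusted p = 0.0123 in limma), where 0.678% of all probe sets were called lower. Leaving out any of the other 4 arrays gave adjusted p-values from 0.20 to 0.596. FLAG-SMN IP replicate 3 was only 0.26 above the receptor genes' 95th percentile, so the fold may be compressed on that array.

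A further probe set, 10530499, is annotated to Slc10a4 together with the transcribed pseudogene Slc10a4l and is not counted among the 10. It read 6.91, 5.57 and 6.24 in FLAG-SMN IP and 8.004 and 8.041 in control IP. Here too the groups were apart, as at 13.2% of all tested probe sets in this direction. The log2 estimate was -1.78 (SE 0.37, adjusted p = 0.18 in limma). This probe set cannot be assigned to either gene alone.

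Ache (probe set 10526559) read 8.80, 8.01 and 7.51 in FLAG-SMN IP and 8.30 and 7.59 in control IP. It was the identity gene farthest over background, above 100% of the receptor genes on all 5 arrays. The spread within groups was wide, 1.29 log2 units across FLAG-SMN IP and 0.71 across control IP, and the groups overlapped. The means were 8.10 ± 0.65 (SD, n = 3) in FLAG-SMN IP and 7.95 ± 0.50 (SD, n = 2) in control IP. The log2 difference was 0.16 (SE 0.40, 95% interval -0.80 to 1.12, limma adjusted p = 0.977), but -0.19 with replicate 1 of FLAG-SMN IP left out. That interval reaches 2.17-fold.

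Among the transcription factors, Isl1 (probe set 10412335), the factor that all newborn spinal motor neurons share, read 5.24, 4.96 and 5.76 in FLAG-SMN IP and 5.67 and 6.39 in control IP. Its values were 0.46 to 2.06 above the 95th percentile of the receptor genes. The FLAG-SMN and control ranges overlapped, since replicate 3 of FLAG-SMN IP exceeded replicate 1 of control IP. The means were 5.32 ± 0.41 (SD, n = 3) in FLAG-SMN IP and 6.03 ± 0.51 (SD, n = 2) in control IP, a log2 difference of -0.72 (SE 0.32, 95% interval -1.47 to 0.034, limma adjusted p = 0.507). Leaving out single arrays moved it between -1.08 and -0.36, with adjusted p from 0.454 to 0.954. The difference was -1.08 without control IP replicate 1 and -0.36 without control IP replicate 2.

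Isl2 (probe set 10585535), the paralogue of Isl1, read 5.86, 5.48 and 5.65 in FLAG-SMN IP and 5.65 and 5.85 in control IP. The ranges nearly coincided, 0.97 to 1.51 above the 95th percentile. FLAG-SMN IP minus control IP gave a log2 difference of -0.085 (SE 0.20, 95% interval -0.55 to 0.38, limma adjusted p = 0.973). Whether Isl1 and Isl2 differed in their response was not tested.

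Lhx3 (probe set 10480912), which combines with Isl1 in motor neuron specification, read 5.20, 4.93 and 5.03 in FLAG-SMN IP and 4.997 and 4.510 in control IP. It was the gene nearest to the threshold from above, 0.17 to 0.65 over it. FLAG-SMN IP minus control IP gave a log2 difference of 0.30 (SE 0.22, 95% interval -0.22 to 0.81, limma adjusted p = 0.777). The ranges of the groups overlapped.

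Lhx4 (probe set 10359027), its paralogue, read 6.09, 5.70 and 5.71 in FLAG-SMN IP and 5.79 and 5.72 in control IP, 1.11 to 1.54 above the 95th percentile. Both control values fell inside the FLAG-SMN range. The log2 difference was 0.076 (SE 0.20, 95% interval -0.40 to 0.55, limma adjusted p = 0.978). It changed sign, to -0.052, without FLAG-SMN IP replicate 1.

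Mnx1 (probe set 10528903), a factor that holds motor neurons to their identity, read 3.81, 4.17 and 3.92 in FLAG-SMN IP and 3.78 and 3.40 in control IP. It stayed 0.32 to 0.94 below the 95th percentile, exceeding 81.3% to 90.6% of the receptor genes in FLAG-SMN IP and 71.8% to 77.6% in control IP. All FLAG-SMN arrays were above both control arrays, by a gap of 0.026, a separation that 12.1% of all probe sets showed in this direction. FLAG-SMN IP minus control IP gave a log2 difference of 0.38 (SE 0.21, limma adjusted p = 0.646), and at background it carries no fold.

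**Figure D2:**
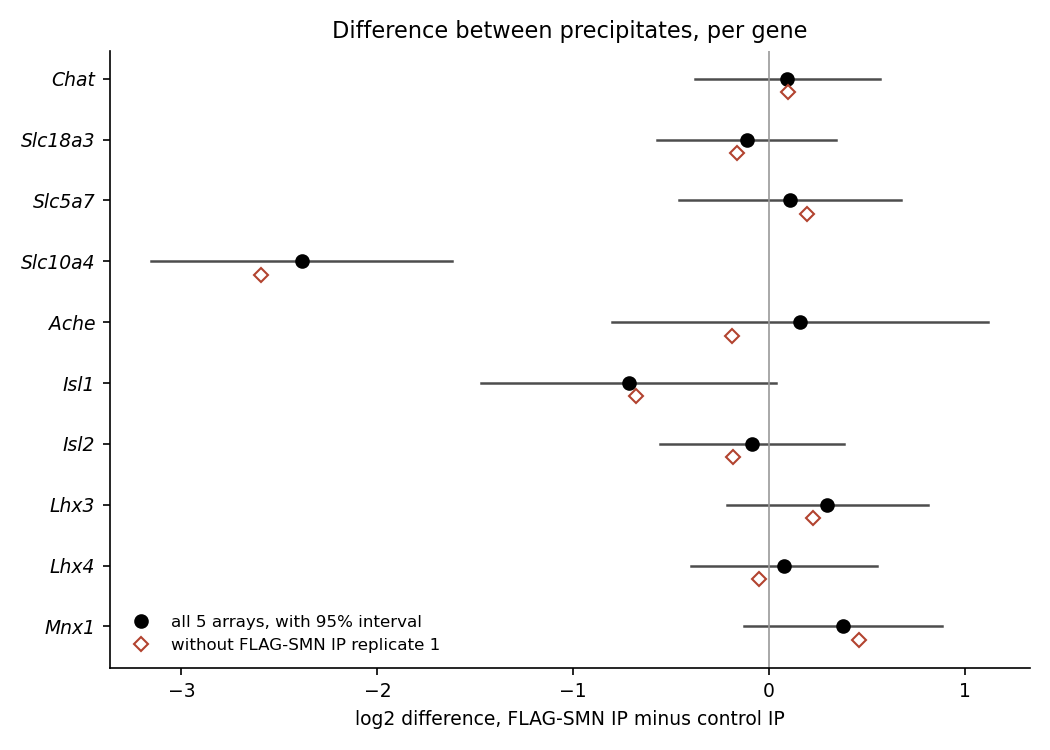
The horizontal axis is the log2 difference, FLAG-SMN IP minus control IP, for each gene; black points with lines are the limma estimates and 95% intervals over all 5 arrays, and open diamonds leave out FLAG-SMN IP replicate 1. The interval of Slc10a4 ends at -1.62, and the intervals of the other 9 genes contain 0.

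Over the 10 genes the median log2 difference was 0.084, and -0.11 without FLAG-SMN IP replicate 1, against 0.018 and 0.0086 over all probe sets tested. The enzyme and transporter genes had a median of 0.093, and -0.16 without that array. The transcription factors had one of 0.076, and -0.052 without it. Of the 10 differences 6 were positive and 4 negative. Among the genes above background, the 95% intervals reached no further than 1.49-fold in either direction for Slc18a3, 1.47-fold for Isl2 and 1.47-fold for Lhx4. They reached 1.755-fold for Lhx3, 2.17-fold for Ache, 2.77-fold for Isl1 and 8.89-fold for Slc10a4. These folds are on the scale of the array values.

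Markers of cells other than motor neurons were read against the same receptor gene background. Of 13 measured spinal interneuron transcription factors, 11 were above it on all 5 arrays, as were 6 of 12 glial and microglial markers and 4 of 7 muscle and fibroblast markers, against 58.2% of all probe sets. Whether the line expresses these markers was not tested, and levels of different probe sets do not rank their genes. Of the identity genes, Chat, Slc5a7 and Mnx1 were at or below background on 4, 5 and 5 of the 5 arrays. The other 7, among them Slc18a3, Isl1, Isl2, Lhx3 and Lhx4, were above it on all 5.

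**Figure D3:**
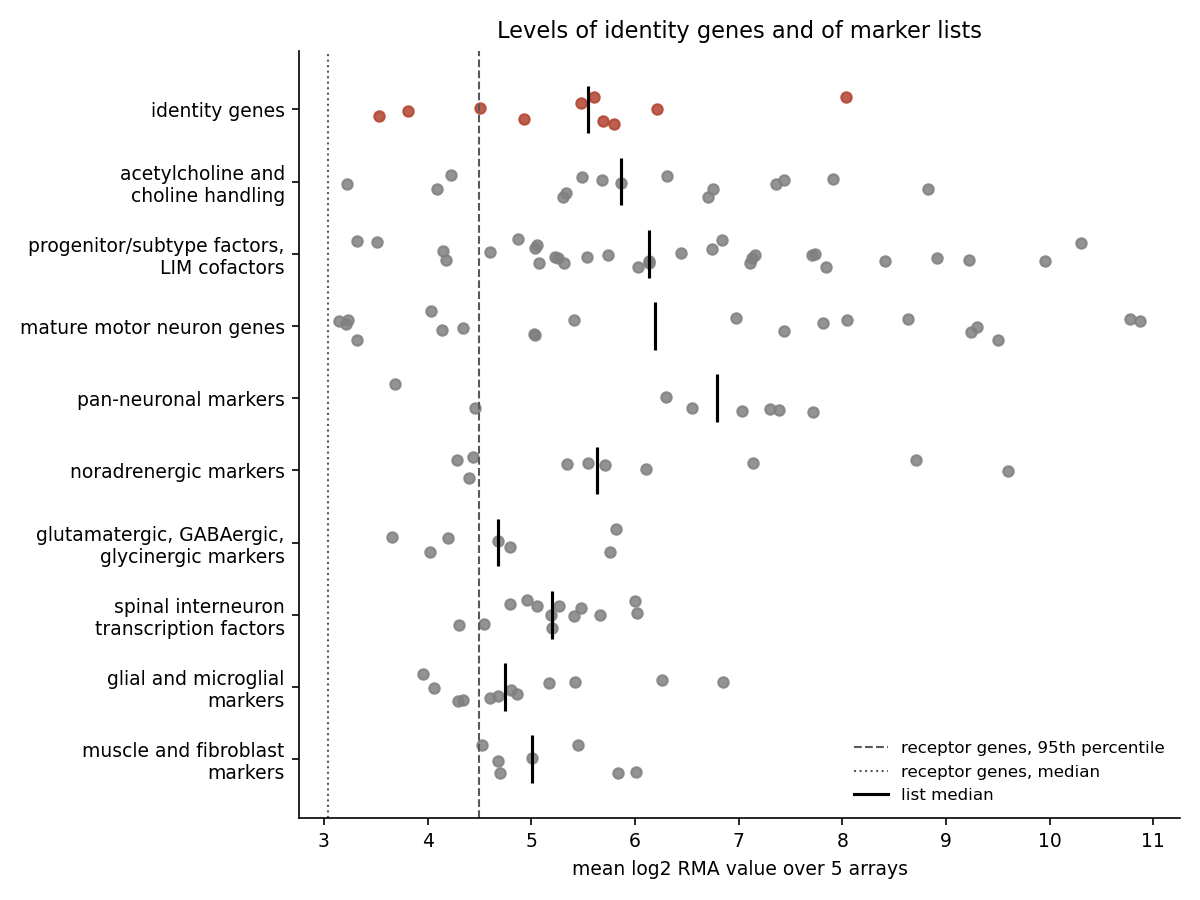
Each point is 1 gene, placed by its mean log2 RMA value over the 5 arrays, in rows by list with the identity genes in red at the top; black bars are list medians, and dotted and dashed lines mark the median and 95th percentile of the receptor genes, averaged over arrays. The identity genes other than Ache and Slc10a4 lie between 3.53 and 5.80, and the spinal interneuron factors between 4.30 and 6.02, which are probe set levels and set no order of RNA amounts.

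Genes that handle acetylcholine and choline outside the chosen 10 were read for 15 of 16 listed genes. In limma 0 passed the adjusted threshold. Before adjustment, p was under 0.05 for 0 higher and 2 lower genes, against 4.14% and 6.31% of all probe sets. The median difference was -0.045, or 0.10 without FLAG-SMN IP replicate 1. Bche encodes butyrylcholinesterase, the second enzyme that hydrolyses acetylcholine. It read 4.78, 4.56 and 4.83 in FLAG-SMN IP and 6.15 and 6.20 in control IP, a log2 difference of -1.45 (SE 0.18, limma adjusted p = 0.0853) that passed once replicate 1 of FLAG-SMN IP was left out (-1.48, adjusted p = 0.0252). Colq, the collagen tail that anchors acetylcholinesterase at the muscle synapse, had -0.57 (adjusted p = 0.426). The lower count before adjustment was 1 without FLAG-SMN IP replicate 3. Slc44a1, a choline transporter of wide expression, had -0.045 (adjusted p = 0.994), or 0.15 without FLAG-SMN IP replicate 1, and Cept1, of phospholipid synthesis from choline, had 0.0011 (adjusted p = 1.00). Ache and Bche thus had values of 0.16 and -1.45, and the difference between them was not tested.

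Progenitor and subtype transcription factors with the LIM cofactors were read for 31 of 32 genes. Of these, 25 were above background on all 5 arrays, against 58.2% of all tested probe sets. In limma 0 passed after adjustment. Before adjustment, p under 0.05 held for 1 higher and 3 lower genes, against 4.14% and 6.31% of all probe sets. The median was -0.030. Ldb1, the adaptor protein that LIM-homeodomain factors need, read 10.22, 10.27 and 10.40 in FLAG-SMN IP and 10.21 and 10.39 in control IP, with a difference of -0.0030 (adjusted p = 1.00), or 0.036 without FLAG-SMN IP replicate 1. Hoxa5 and Hoxc6, which position motor neuron pools along the cord, were below both control arrays on every FLAG-SMN array. Separation in this direction occurred at 13.2% of all tested probe sets. The differences of Hoxa5 and Hoxc6 were -1.09 (SE 0.20, limma adjusted p = 0.147) and -0.86 (SE 0.17, limma adjusted p = 0.158). Ebf3, a helix-loop-helix factor, had -0.63 (adjusted p = 0.518).

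Genes of mature motor neurons were read for 20 of 22, with 13 above background on all arrays, against 58.2% of all tested probe sets. Of the 20 genes, 0 passed the adjusted threshold in limma. At an unadjusted p under 0.05 the count was 0 higher and 5 lower, against 4.14% and 6.31% of all probe sets. The lower count was 2 without control IP replicate 2. Prph, the intermediate filament peripherin, read 11.52, 10.47 and 10.69 in FLAG-SMN IP and 10.86 and 10.37 in control IP, a difference of 0.28 (adjusted p = 0.913). Replicate 1 of FLAG-SMN IP was its highest array, and without it the difference was -0.031. The neurotrophic receptor genes Ret and Gfra1 encode products that together bind GDNF. Their differences were -0.73 (SE 0.21, limma adjusted p = 0.286) and -1.44 (SE 0.33, limma adjusted p = 0.206). For neither gene did the groups overlap, a separation that 13.2% of all probe sets showed in this direction.

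Slc10a4 did not stand alone among neuronal genes. The 8 pan-neuronal markers had a median of -0.91, and 0 passed the adjusted threshold in limma. At an unadjusted p under 0.05 the count was 0 higher and 5 lower, against 4.14% and 6.31% of all probe sets. Snap25, of the vesicle fusion machinery, read 7.25, 6.05 and 6.32 in FLAG-SMN IP and 8.55 and 8.80 in control IP (-2.14, SE 0.36, adjusted p = 0.131). Syp, a synaptic vesicle membrane protein, had -1.56 (SE 0.28, adjusted p = 0.134). Tubb3, a neuronal tubulin, read 9.09, 7.05 and 6.98 in FLAG-SMN IP and 7.86 and 7.63 in control IP. Its difference was -0.038 (adjusted p = 0.999), and -0.73 (adjusted p = 0.162 in limma) without replicate 1 of FLAG-SMN IP, its highest array. Without FLAG-SMN IP replicate 1, 3 of the 8 passed as lower, where 0.678% of all probe sets did. With either of the other FLAG-SMN arrays left out, 0 probe sets of the whole table passed after adjustment. The lower count at an unadjusted p under 0.05, which was 5 with all arrays, was then 3.

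The summed linear signal of the 8 pan-neuronal markers was 1240 in replicate 1 and 507 and 539 in replicates 2 and 3 of FLAG-SMN IP, against 1388 and 1427 in control IP. That of the 10 measured noradrenergic markers was 1557 to 1701 in FLAG-SMN IP and 1592 to 1897 in control IP. Linear sums weigh the brightest probe sets most. By mean over the 5 arrays these were Tubb3 and Snap25 among pan-neuronal and Hand2 and Gata2 among noradrenergic markers. The order was not the same on each array, since Elavl3 read 7.81 and Snap25 7.25 in FLAG-SMN IP replicate 1. The sums therefore do not stand for each gene of a list, and the lists were not tested against each other. The noradrenergic median difference was 0.16, with 6 positive and 4 negative values. In limma 0 passed after adjustment. Before adjustment, p was under 0.05 for Ddc and Gata3, both higher, and for Th and Dbh, both lower. Over all probe sets the shares were 4.14% higher and 6.31% lower. Th and Dbh, enzymes of catecholamine synthesis, had differences of -1.94 (adjusted p = 0.0957) and -2.23 (adjusted p = 0.11). Both passed when replicate 1 of FLAG-SMN IP was left out, where 0.678% of all probe sets were called lower. Without FLAG-SMN IP replicate 2 or 3, 0 probe sets of the whole table passed. The FLAG-SMN values of Th were 0.085 to 0.89 above the receptor genes' 95th percentile, and those of Dbh 0.39 to 0.93. Ddc, another enzyme of that synthesis, had 0.76 (adjusted p = 0.228) and Gata3, a lineage transcription factor, 0.50 (adjusted p = 0.469). This pair, named after its values were seen, was higher on every FLAG-SMN array than on either control array. Of the 10 measured noradrenergic markers, 4 were separated in this direction and 3 in the lower direction, against 12.1% and 13.2% of all probe sets. Hand2 and Gata2, transcription factors of the same lineage, had -0.016 (adjusted p = 0.999) and 0.078 (adjusted p = 0.98). No marker had a value of 0, since RMA gives a level to every probe set. The part of these lists in the difference of Slc10a4 was not tested. In such bulk precipitates, fewer cells of a type, less RNA per cell and less RNA recovered in the precipitate cannot be told apart. A difference between the construct cells and the control cells cannot be told apart from these either.

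Glutamatergic, GABAergic and glycinergic markers (7 measured) had a median of 0.021, or -0.18 without FLAG-SMN IP replicate 1, with Slc17a7 at -0.18 (adjusted p = 0.86), Gad2 at -0.23 (adjusted p = 0.881) and Slc32a1 at 0.40 (adjusted p = 0.931). Slc32a1 read 7.09, 5.07 and 5.59 in FLAG-SMN IP and 5.78 and 5.25 in control IP, and its difference was -0.18 without FLAG-SMN IP replicate 1. Spinal interneuron factors (13 measured) had a median of 0.19, with Evx2 at 0.37 (adjusted p = 0.577), Sox14 at 0.33 (adjusted p = 0.739) and Lbx1 at 0.30 (adjusted p = 0.85). Glial and microglial markers (12 measured) had a median of -0.036, with Cspg4 at -0.50 (adjusted p = 0.439), Tmem119 at -0.42 (adjusted p = 0.583) and Pdgfra at -0.046 (adjusted p = 0.996), or 0.16 without FLAG-SMN IP replicate 1. Muscle and fibroblast markers (7 measured) had a median of 0.11, with Col1a1 at 0.30 (adjusted p = 0.773), Acta1 at 0.061 (adjusted p = 0.983) and Des at 0.31 (adjusted p = 0.787). In limma 0 genes of these 4 lists passed the adjusted threshold. At an unadjusted p under 0.05 only Cspg4, lower, did so, against 6.31% lower over all probe sets. That glial count of 1 fell to 0 when any array other than FLAG-SMN IP replicate 1 was left out.

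**Figure D4:**
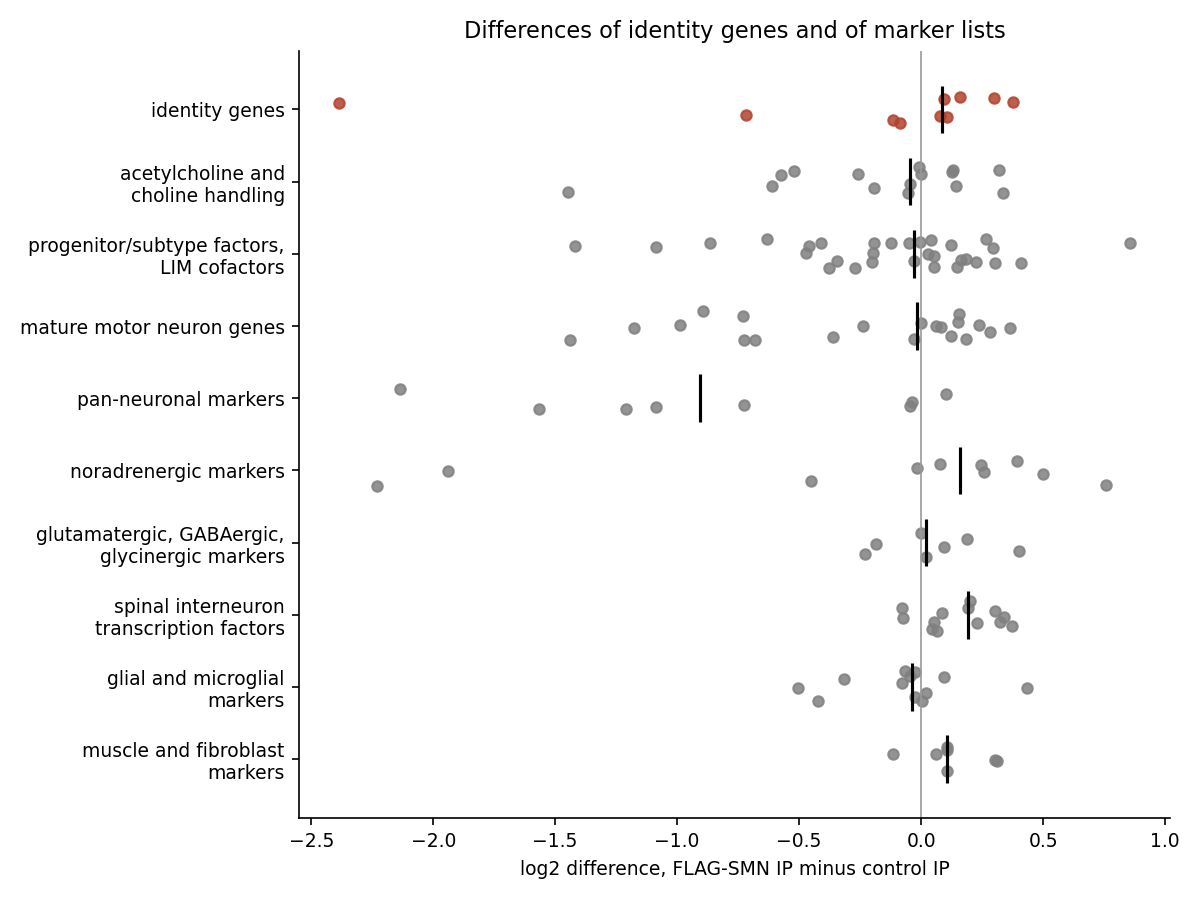
Each point is 1 gene, placed by its log2 difference, FLAG-SMN IP minus control IP, with the identity genes in red in the top row and black bars at list medians. Slc10a4 lies at -2.39 while the other 9 identity genes lie between -0.72 and 0.38, and the pan-neuronal row is centred at -0.91.

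Likeness of profile was measured as the root mean square difference over the 5 arrays between deviations from each gene's own mean, among 11704 single-symbol probe sets above the median level. Nearest to Slc10a4 were Fam163a at 0.25, Chga (chromogranin A) at 0.36 and Chrnb2, a nicotinic receptor subunit, at 0.36 log2 units. Their own differences were -2.25, -1.88 and -1.99 (limma adjusted p = 0.133, 0.108 and 0.0536). Nearest to Ache were Znhit1 at 0.062, Ccl25 at 0.073 and Mettl23 at 0.082, with differences of 0.13, 0.25 and 0.010. Ache and its neighbours were highest in FLAG-SMN IP replicate 1 and next highest in control IP replicate 1, a pattern that crosses the groups. With 5 arrays and so many candidates, close profiles are a description only.

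**Figure D5:**
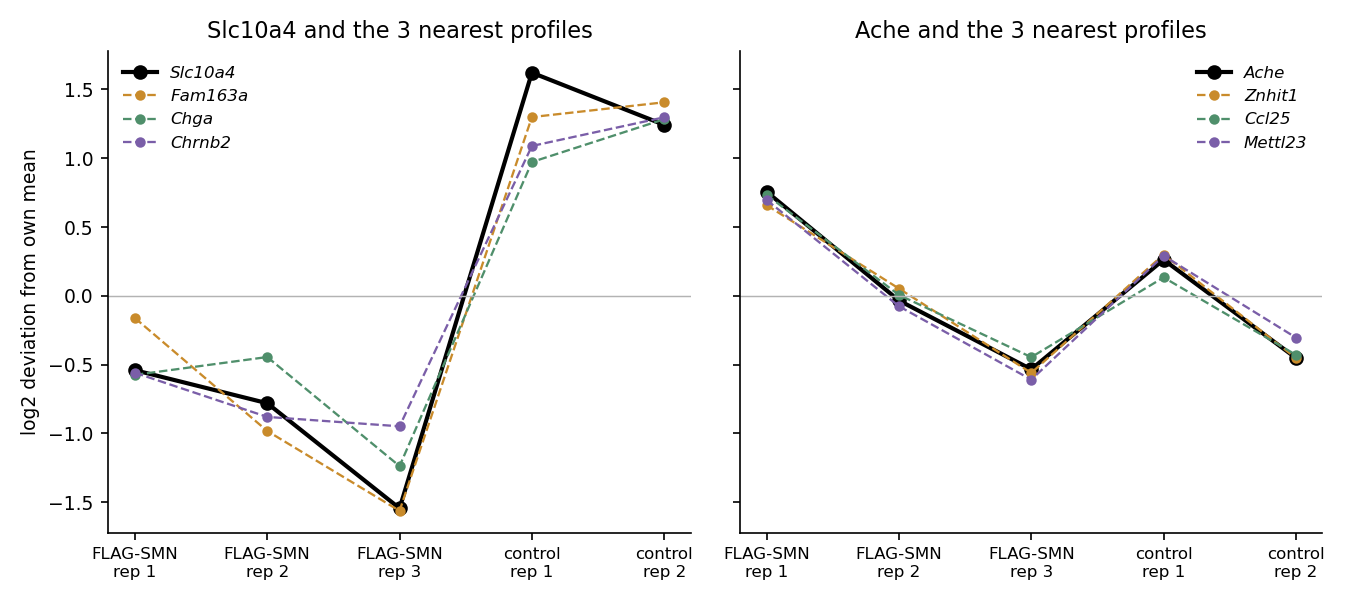
The vertical axis is the log2 deviation of each gene from its own mean over the 5 arrays, which run along the horizontal axis; lines only join a gene's points. Slc10a4 and its 3 nearest genes are below 0 in all FLAG-SMN arrays and above it in both control arrays, whereas Ache and its 3 nearest genes are highest in FLAG-SMN IP replicate 1.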

How the data were processed

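RNA of 5 anti-FLAG precipitates was measured on Affymetrix arrays from 300 to 500 ng of RNA, per the labels' protocols. The deposited values are log2 intensities from RMA, per the submitters' processing notes. No RMA version is stated, and the range of the values gave the log2 scale. RMA draws arrays toward a common distribution, which hides overall differences in recovery. Groups and replicate numbers came from sample titles. Of 34760 probe sets, 6573 with IDs below the lowest annotated ID were presumed controls and left out, which kept 28187, of which 21640 carry 1 gene symbol, 1321 several and 5226 none.

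Differences were fitted with limma 3.58.1 in R 4.3.3 (lmFit, eBayes, 2-sided, no block, 3 residual and 3.8 prior degrees of freedom), with p-values adjusted by Benjamini-Hochberg across the 28187 probe sets, at a threshold of 0.05. The fit was tested on simulated data. The brightest probe set stood for a gene with several. Named genes were the 10 chosen, the 2 brightest and the 2 of smallest p in each other list, and the 3 nearest profiles to the identity gene of highest mean and to that of smallest p. The members and lists were chosen with earlier results of these data known. Some genes of the lists were not analysed here, and counts are over the measured members. The small number of arrays limits precision. Alternatives were other scalings, filters, variance models, weights, a replicate block, other backgrounds and leaving out each array. Python 3.11.15 with matplotlib 3.10.9 made the figures.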

Additional observations from a re-analysis of the deposited data

How the results depend on the processing

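The count of identity genes called was 0 in all 5-array fits except 2: array weights, and a fit over gene averages, each called 1, Slc10a4 (-2.61 and -2.39, limma adjusted p = 0.0446 and 0.0442). Slc10a4 has 1 probe set, so averaging left its value as it was, and that fit had 19937 tests in place of 28187. Leaving out each array gave counts from 0 to 1, with the call without FLAG-SMN IP replicate 1. Slc10a4 stayed between -2.61 and -2.09 in every setting run. Isl1 stayed negative throughout.

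The number above background on all arrays was 4 at the receptor genes' 99th percentile, 8 at the 90th, 6 against the median and 1 against the 75th percentile of the presumed controls. It was 1 against the highest and 4 against the median of the interneuron factors, both added after seeing the data, and both set probe sets of different genes against each other. Under cyclic loess and without each array in turn it was 7.

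With array weights Ache was -0.13 and Lhx4 -0.0073. Over the fits without each array, Chat ranged from -0.069 to 0.26, Slc5a7 from -0.16 to 0.37, Ache from -0.20 to 0.51, Isl2 from -0.18 to 0.014 and Lhx4 from -0.052 to 0.14. Of these uncalled differences, the cause of each change of sign was not tested.

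Over the whole table the 9 calls became 0 with cyclic loess scaling, the replicate block, all 34760 probe sets, or when any array other than FLAG-SMN IP replicate 1 was left out, and 350 without that array. They became 41 with centring on the brighter probe sets, 86 with array weights and 54 over the gene averages. The labels share replicate numbers 1 and 2 only. With the replicate block FLAG-SMN IP replicate 3 has no partner and drops out, and Slc10a4 was -2.09 (adjusted p = 0.089). Same-numbered arrays' deviations from their group means correlated at 0.13 and -0.20, and FLAG-SMN IP replicate 3 with control IP replicate 2 at 0.42. Deviations of the 2 control arrays are mirror images, so these values cannot decide pairing, and none was assumed.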
